A study of Mus musculus with 4 samples.

Results

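The mitochondrial carrier family, SLC25, was followed in the liver of 4 ABCA1-transgenic (ABCA1-TG) mice, with 1 oligonucleotide array per mouse. Members were the genes named Slc25a with a number in the platform annotation, and 33 genes on 65 probe sets met this rule, of 12393 genes on the array with a single symbol. RefSeq lists 47 mouse genes of this name, and the other 14, among them Slc25a1 and Slc25a12, were not analysed here. The mice were C57BL/6 males aged 5 to 6 months, fed the NIH36 diet. ABCA1, overexpressed in all 4, is the transporter that loads lipid onto apolipoprotein A-I to start a high-density lipoprotein particle. The sources differ on the LDL receptor background that the mice shared: the series title gives -/- and the sample descriptions give +/-, which was not settled here. Neither the species of the transgene nor the promoter that drives it is given in the labels. The series design names wild-type controls, which were not analysed here, so all values below are from transgenic mice and show differences between animals and not an effect of ABCA1. On the animals the labels add only that the samples are biological replicates, and each was taken here as 1 mouse. P-values of the spread test below set the spread between these samples against that of probe sets of similar level. Those of the shared-difference test set differences between samples against disagreement between probe sets of a gene, and not against spread between animals.

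SLC25 proteins are built from a repeated pair of membrane-spanning helices and sit mostly in the inner mitochondrial membrane, where they exchange nucleotides, phosphate, organic acids, amino acids and cofactors between the cytosol and the matrix. Mitochondrial ATP leaves the matrix through the ADP/ATP carriers. In mouse, Slc25a4 is the isoform known from heart and skeletal muscle, and Slc25a5 is the widespread isoform. In hepatocytes the urea cycle, the malate-aspartate shuttle, the export of citrate for lipid synthesis and the oxidation of long-chain fatty acids each cross the inner membrane through carriers of this family.

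The promoters of the ADP/ATP carrier isoforms are shown because these genes had the widest and the third narrowest spread between mice among members above the median level. Both windows are from RefSeq, build GRCm38.p6, and run 5′ to 3′ on the gene's strand, from 250 bases before to 50 bases after the annotated start. Capitals mark TATAA and CCAAT, searched on both strands.
Slc25a4, chr8:46211013-46211312, minus strand: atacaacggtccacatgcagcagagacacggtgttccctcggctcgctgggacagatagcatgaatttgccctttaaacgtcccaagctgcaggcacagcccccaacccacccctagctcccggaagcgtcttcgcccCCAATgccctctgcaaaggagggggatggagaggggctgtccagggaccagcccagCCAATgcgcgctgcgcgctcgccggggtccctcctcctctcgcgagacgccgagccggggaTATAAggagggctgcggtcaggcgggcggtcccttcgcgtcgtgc
Slc25a5, chrX:36795347-36795646, plus strand: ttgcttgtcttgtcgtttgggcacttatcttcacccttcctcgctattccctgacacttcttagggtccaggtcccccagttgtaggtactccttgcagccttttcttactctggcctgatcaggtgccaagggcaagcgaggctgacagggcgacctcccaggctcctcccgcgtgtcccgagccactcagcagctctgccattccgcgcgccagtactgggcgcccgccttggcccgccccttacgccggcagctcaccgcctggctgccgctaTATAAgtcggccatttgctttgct
Each window held TATAA 1 time, a motif found in 24.9% of the 32851 promoters of this length. The match began at base 6 of the 50 after the annotated start in Slc25a4 and at base 27 in Slc25a5. Neither lay before the start. CCAAT, found in 37.4% of them, occurred 2 times in the Slc25a4 window and 0 times in the Slc25a5 window. The E-box letters CANNTG, found in 72.3%, occurred 1 time in Slc25a4 and 3 times in Slc25a5, and GGGCGG, found in 35.7%, occurred 1 time in each. These are matches of letters and were not tested against the expression values.

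The deposited values were linear signal intensities, taken here to log2, and 1 probe set per gene was used, the one of highest mean level. Array medians lay between 267.3 and 305.4 signal units, and pairs of arrays had Pearson's r of 0.950 to 0.959 across probe sets. The labelled tissue was borne out by hepatocyte markers, of which 6 of 7 were measured, at mean log2 signals of 14.22 to 15.96. Mouse 1 stood apart in skeletal muscle markers, with a summed signal over 10 of 10 listed genes of 795 there, while mice 2 to 4 gave 9047, 6460 and 8179. None of the 10 muscle markers was at 0. Exocrine pancreas markers, 7 of 8 measured, summed to 4982 in mouse 2, while mice 1, 3 and 4 gave 995, 1128 and 1836. For the Gapdh controls the log2 ratio of 3-prime to 5-prime signal was 1.67, 1.94, 2.03 and 2.00 in mice 1 to 4, lowest in mouse 1. For the Actb controls it was 1.82, 1.88, 2.12 and 2.02, also lowest in mouse 1. Such ratios depend on how well long RNA was kept and on the amplification, which favours 3-prime ends. These cannot be told apart here. In whole liver, fewer cells of a type and less RNA per cell cannot be told apart.

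Carrier genes gave high signals in these livers. Of the 33 members, 9 had a mean level in the top 10% of genes, where the background is 10%, and 28 lay above the median of all probe sets, 8.14 log2, as did 57.8% of all genes. Means ran from 15.34 log2 for Slc25a39 to 3.44 for Slc25a24, with a median of 10.38, against 8.63 over all genes. Probe sets differ in binding, so this is an order of signals and not of transcript abundance.

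**Figure D1:**
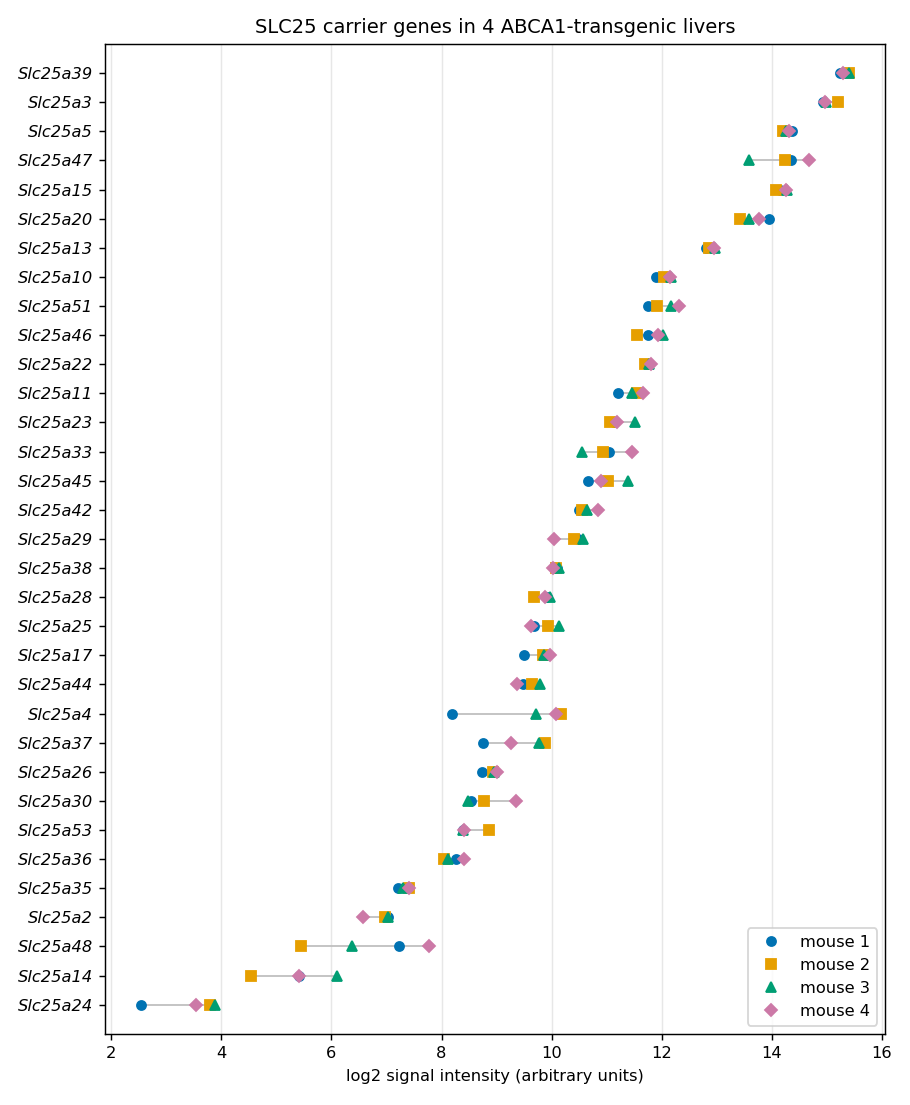
Log2 signal intensity (horizontal axis) of the 33 SLC25 genes (vertical axis, ordered by mean level) in each of the 4 livers, 1 symbol per mouse, with a grey line from the lowest to the highest mouse. Slc25a39 is at the top at a mean of 15.34 and Slc25a24 at the bottom at 3.44, and Slc25a4 has mouse 1 apart at 8.19.

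Differences between mice were small for most carriers. Over the 33 genes the SD between mice had a median of 0.20 log2, against 0.26 for all genes. The highest mouse was less than 1.5-fold above the lowest for 24 of 33, where 49.5% of all genes met this, and more than 2-fold above it for 6 of 33, where 27% did. Without mouse 1 the counts were 27 of 33, against 58.3% of all genes, and 3 of 33, against 21.4%. Spread falls as level rises on these arrays, and relative to a prior SD at the same level the median was 0.86 for the 33 members and 0.96 for all genes. Among the 28 members above the median level the relative spread was 0.98. An SD from 4 arrays has a 95% interval of 0.566 to 3.73 times its value, so single SDs are imprecise.

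No carrier passed a test of excess spread. The variance of each probe set was compared with the level-dependent prior by limma's F-test with Benjamini-Hochberg adjustment over 22626 probe sets, and 0 of 33 members passed, as did 0% of all probe sets. At an unadjusted p under 0.05, limma counted 2 of 33 members, Slc25a4 and Slc25a47, where 3.7% of all genes were counted. Over all 65 probe sets of the family it counted 5, where 3.71% of all probe sets were counted. The 5 were of Slc25a4, Slc25a47, Slc25a51 and Slc25a29. A prior without robust estimation also called 0 members. For the 15 members with 2 or more probe sets, a second test asked whether the probe sets of a gene shared a difference between mice, and 0 of 15 passed after adjustment over 4956 genes, of which 0.383% passed. At an unadjusted p under 0.05 it counted 2 of 15, Slc25a5 and Slc25a20, where 9.12% of genes were counted. Probe sets of a gene often disagreed, and of these 15 genes 1 had all its probe sets lowest in the same mouse and 3 had them all highest in the same mouse. Values below are therefore descriptions of these 4 livers unless a test is named, and a mouse given as highest or lowest is that of the probe set of highest level.

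**Figure D2:**
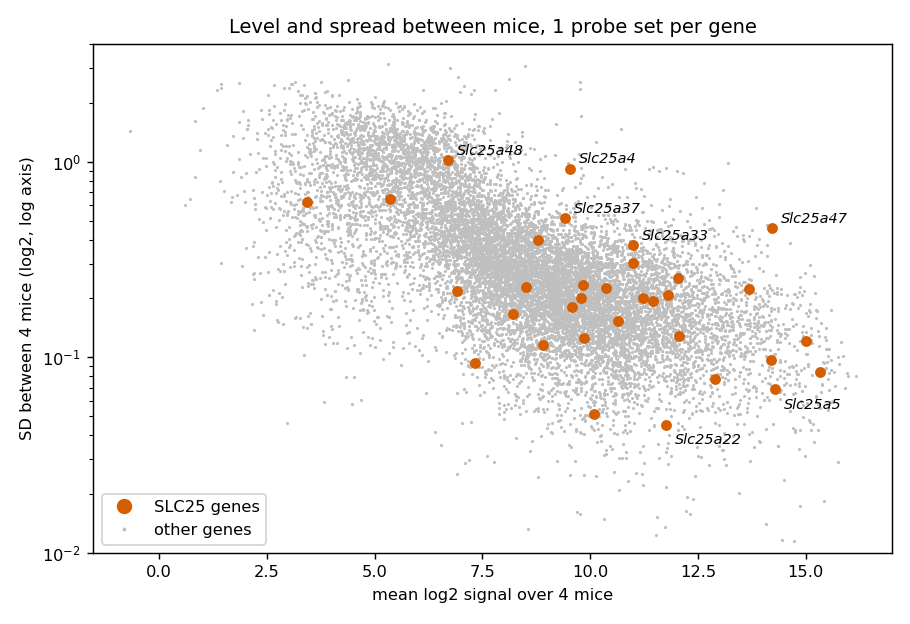
Mean log2 signal over the 4 mice (horizontal axis) and SD between the 4 mice in log2 units (vertical log axis), with 1 point per gene, SLC25 genes in orange and all other genes in grey. Slc25a47 has a mean of 14.21 and an SD of 0.46, and Slc25a4 an SD of 0.92, while Slc25a22 has an SD of 0.04.

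The ADP/ATP carrier isoforms differed in their spread. Slc25a4 measured 8.19, 10.17, 9.71 and 10.09 in mice 1 to 4 on its probe set of highest level. Mouse 1 was the lowest, at -1.80 log2 relative to the mean of the other 3, and the range from lowest to highest mouse was 3.93-fold. The SD was 0.92 (n = 4), 4.28 times the prior, with an unadjusted p of 0.00451 and an adjusted p of 0.977 (limma). Without mouse 1 the SD on the same probe set was 0.24. Slc25a5 measured 14.36, 14.20, 14.27 and 14.31 in mice 1 to 4, an SD of 0.07 (n = 4) and a range of 1.12-fold, and its SD was 0.15 with the arrays shifted to the same median. The log2 difference Slc25a4 minus Slc25a5, in which the binding of each probe set stays the same from mouse to mouse, stood at -1.90 in mouse 1 relative to the mean of the other 3.

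The probe sets of Slc25a4 did not all run the same way. The second, at 7.98, 10.17, 9.64 and 10.31 in mice 1 to 4, and the third, at 8.26, 8.91, 8.97 and 9.25, were also lowest in mouse 1, at -2.06 and -0.78 log2 relative to the other mice. The fourth had a low mean of 4.85 and was lowest in mouse 4, at 3.07, with 5.57, 5.30 and 5.47 in mice 1 to 3. With the mean over all 4 probe sets mouse 1 was at -0.92. With all 4 the test of a shared difference gave an adjusted p of 0.659 (limma's moderated variance). When only the 75% of probe sets with the highest mean level were kept, which removed the fourth, it gave 0.0118. In the other alternatives it ranged from 0.342 to 0.834. All 8 probe sets of Slc25a5 were higher in mouse 1 than in the mean of the other mice, by 0.03 to 0.66 log2. Of all probe sets 45.4% were higher in mouse 1. The 8 read RNA of 1 gene on the same arrays and are not independent. For Slc25a5 the adjusted p of the test of a shared difference was 0.158 (limma's moderated variance). With the arrays shifted to the same median it was 0.00337, and in the other alternatives it ranged from 0.0851 to 0.810.

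**Figure D3:**
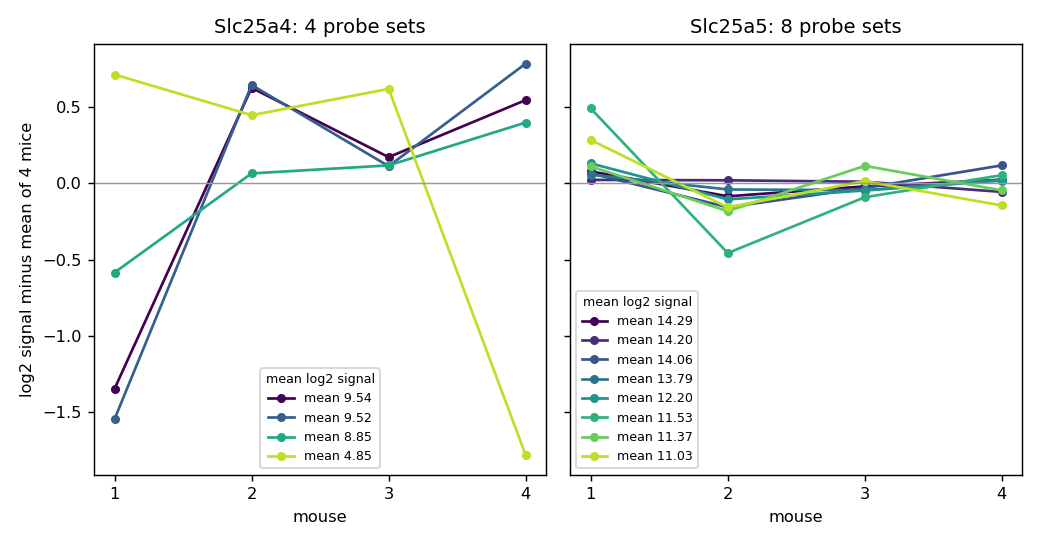
Log2 signal minus the mean of the 4 mice (vertical axis) for each mouse (horizontal axis), with a line for each probe set of Slc25a4 (left, 4 probe sets) and Slc25a5 (right, 8 probe sets), labelled by mean log2 signal. The Slc25a4 probe sets at means of 9.54, 9.52 and 8.85 have their lowest point in mouse 1 and the one at 4.85 in mouse 4.

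Markers of more than 1 other cell type were low in the same mouse as Slc25a4. All 10 skeletal muscle markers had their lowest level in mouse 1, as did 28.9% of all genes. They ran from 3.90 to 7.45 log2 there and from 6.86 to 11.36 in the other mice. Their median difference in mouse 1 from the mean of the other 3 was -2.99. Mb, myoglobin, measured 3.90, 10.42, 9.46 and 10.15 in mice 1 to 4. Among mice 2 to 4 the summed muscle signal was lowest in mouse 3, at 6460, as was Slc25a4 on its first and second probe sets. The third was lowest in mouse 2 among these and the fourth in mouse 4. Single muscle markers did not all follow the sum. Of the 10, 3 had their highest level in mouse 3, Acta1, Pvalb and Mylpf. Ckm measured 9.92, 9.45 and 9.03 in mice 2 to 4, lowest of these in mouse 4. Bile duct markers, 5 of 6 measured, summed to 398 in mouse 1, while mice 2 to 4 gave 1202, 1178 and 977. Of these 5 markers 4 had their lowest level in mouse 1, as did 28.9% of all genes. Krt19, a keratin of bile duct cells, was at -2.83 log2 there relative to the other mice. Of the 7 exocrine pancreas markers 0 were higher in mouse 1 than in the other mice, where 42.8% of all genes were. In mouse 3 also 0 of 7 were higher, where 59.8% of all genes were. The lowest level fell in mouse 1 for 4 and in mouse 3 for 3. Their median difference was -0.81 in mouse 1 and -1.10 in mouse 3. The part of muscle, bile duct or pancreas RNA in the Slc25a4 values was not tested.

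**Figure D4:**
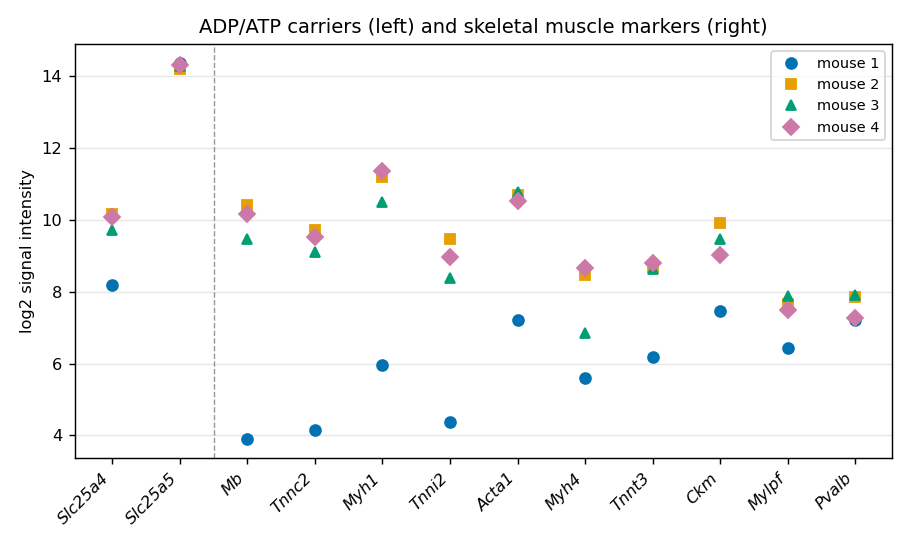
Log2 signal intensity (vertical axis) of Slc25a4 and Slc25a5 and of the 10 skeletal muscle markers (horizontal axis, right of the dashed line), with 1 symbol per mouse. Slc25a4 and all 10 markers have their lowest symbol in mouse 1, while Slc25a5 lies between 14.20 and 14.36.

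Phosphate enters the matrix through Slc25a3, which measured 14.93, 15.20, 14.98 and 14.96 in mice 1 to 4. Mouse 2 was the highest, by 0.24 log2 over the mean of the others. The ATP-Mg/phosphate carriers, which change the size of the matrix adenine nucleotide pool, included Slc25a25, at 9.69, 9.94, 10.13 and 9.62, and Slc25a23, at 11.23 ± 0.20 (SD, n = 4). Both were highest in mouse 3, by 0.38 and 0.39 over the others. Slc25a24 had the lowest level of the family, 3.44 ± 0.62 (SD, n = 4), where log2 values are noisy.

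ATP synthase, which uses the phosphate and ADP brought in by these carriers, was measured by 15 of 16 listed genes. Of these, 0 passed the spread test, 0 had an unadjusted p under 0.05 (background 3.7%), and the median SD was 0.13. The widest were Atp5k, at 12.95, 12.64, 12.85 and 12.27 in mice 1 to 4, and Atp5l, at 8.88, 8.57, 8.71 and 8.19. Both had their lowest level in mouse 4. The narrowest was Atp5d, a subunit of the central stalk, at 14.74 ± 0.07 (SD, n = 4).

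Carriers of organic acids had close levels in the 4 livers. Slc25a10, which exchanges malate and succinate for phosphate, measured 11.89, 12.04, 12.18 and 12.15 in mice 1 to 4. Slc25a11, the 2-oxoglutarate/malate carrier of the malate-aspartate shuttle, had a mean of 11.47 ± 0.19 (SD, n = 4). Both were lowest in mouse 1, at -0.23 and -0.36 log2 relative to the others, but the second probe set of Slc25a10 was lowest in mouse 2 and at 0.02 in mouse 1. Slc25a13, citrin, the liver aspartate/glutamate carrier of the same shuttle, measured 12.81, 12.85, 12.97 and 12.95, a range of 1.12-fold. Slc25a22, a glutamate carrier, had the smallest SD of the family, 0.04, at 11.73, 11.70, 11.77 and 11.81, and it was 0.12 with the arrays shifted to the same median.

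The enzymes of the malate-aspartate shuttle were measured by 4 of 4 genes, with 0 at an unadjusted p under 0.05 in the spread test and a median SD of 0.12. Mdh2, the mitochondrial malate dehydrogenase, was the widest, at 14.23, 13.95, 13.83 and 14.17 in mice 1 to 4, followed by Got1, the cytosolic aspartate aminotransferase, at 13.31 ± 0.12 (SD, n = 4). Mdh1, the cytosolic counterpart of Mdh2, was the narrowest on its probe set of highest level, at 14.51 ± 0.09 (SD, n = 4). This order depends on the probe set chosen. The second probe set of Mdh1 measured 13.54, 13.54, 13.11 and 13.40 in mice 1 to 4. The third measured 13.43, 13.36, 12.85 and 13.18. The second of Mdh2 measured 13.80, 13.81, 13.79 and 13.73. The shared-difference test counted 1 of 3 genes, Mdh1, at the unadjusted threshold, where 9.12% of all genes were counted, and 0 passed after adjustment.

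Of the genes of citrate export and lipogenesis, 7 of 7 were measured and 0 passed the spread test. This list holds no SLC25 gene. Of the listed citrate, dicarboxylate and 2-oxoglutarate carriers 2 of 4 were measured, and Slc25a1 was not analysed here. At an unadjusted p under 0.05, limma counted 2 of 7, Srebf1 and Fasn, where 3.7% of all genes were counted. Srebf1, a transcription factor of lipogenesis, measured 11.54, 12.01, 13.44 and 11.65 in mice 1 to 4, and Fasn, fatty acid synthase, 11.13, 11.57, 12.16 and 11.32. Both had their highest level in mouse 3. Over the list 5 of 7 were higher in mouse 3 than in the other mice, as were 59.8% of all genes, and 2 were lowest there. Slc25a10, also highest in mouse 3, was 0.15 above the others there. Cs, citrate synthase in the matrix, was the narrowest of the list, at 11.93 ± 0.08 (SD, n = 4).

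Amino acid carriers were led by Slc25a15, which exchanges ornithine for citrulline in the urea cycle and measured 14.15, 14.07, 14.28 and 14.25 in mice 1 to 4. Slc25a38, a glycine carrier needed for heme synthesis, varied little, at 10.10, 10.07, 10.14 and 10.02. Slc25a29, a carrier of basic amino acids, and Slc25a44, a carrier of branched-chain amino acids, had means of 10.38 ± 0.23 and 9.57 ± 0.18 (SD, n = 4). Another probe set of Slc25a29, at a mean of 6.76, had a range of 7.68-fold. Slc25a2, a second ornithine carrier, measured 7.04, 6.97, 7.03 and 6.58, below the median level. Of these 5 genes 4 had their lowest level in mouse 4, as did 30.7% of all genes, and Slc25a15 had it in mouse 2. Over all 12 probe sets of these genes 7 were lowest in mouse 4, where 31.2% of all probe sets were. Among the others, a second probe set of Slc25a44 was highest in mouse 4, at 0.44 over the other mice, and the second of Slc25a15 was highest in mouse 2.

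Urea cycle enzymes, 5 of 6 measured, had a median SD of 0.12, and 0 had an unadjusted p under 0.05 in the spread test. Arg1, arginase, which makes the ornithine that Slc25a15 carries, was the widest, at 15.18, 15.23, 15.17 and 14.82 in mice 1 to 4. Otc, the matrix enzyme that uses ornithine, followed, at 14.35 ± 0.13 (SD, n = 4), and Cps1, which makes carbamoyl phosphate, was the narrowest, at 15.58 ± 0.10. Otc was the 1 gene of the list with several probe sets. Its shared-difference test gave an unadjusted p of 0.00628 and an adjusted p of 0.288 (limma's moderated variance).

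Slc25a20 carries acylcarnitines into the matrix for fatty acid oxidation and measured 13.95, 13.43, 13.59 and 13.78 in mice 1 to 4. Its second probe set measured 12.00, 11.68, 11.34 and 11.81. Both were highest in mouse 1 and second highest in mouse 4, and they differed in whether mouse 2 or mouse 3 was the lowest. The test of a shared difference gave an unadjusted p of 0.0212 and an adjusted p of 0.443 (limma's moderated variance).

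The other genes of the carnitine shuttle, 4 of 5 measured, had a median difference of -0.45 log2 in mouse 3 relative to the other mice. There 1 of 4 was higher than in the other mice, as were 59.8% of all genes. Crat, carnitine acetyltransferase, measured 10.22, 9.55, 9.21 and 9.65 in mice 1 to 4, and Slc22a5, the carnitine transporter of the plasma membrane, 11.43, 11.17, 10.91 and 11.49. Cpt1a, which makes acylcarnitines at the outer membrane and was named after its values were seen, measured 13.36, 13.23, 12.78 and 13.05. These 3 were lowest in mouse 3, but other probe sets of Crat and Cpt1a were lowest in mouse 1 or mouse 2. All 3 probe sets of Cpt1a were highest in mouse 1, at 13.36, 10.93 and 10.01. The shared-difference test gave Cpt1a an unadjusted p of 0.0117 and an adjusted p of 0.370 (limma's moderated variance). It was the 1 of 4 genes under 0.05 unadjusted, where 9.12% of all were. Cpt2, which releases the acyl group in the matrix, measured 12.31, 12.19, 12.37 and 12.45. None passed the spread test.

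Slc25a47, a carrier known to be enriched in liver, had the widest spread of the 8 carriers of highest signal. It measured 14.36, 14.23, 13.59 and 14.67 in mice 1 to 4, with mouse 3 at -0.84 log2 relative to the mean of the others. The SD was 0.46 (n = 4), 3.39 times the prior, with an unadjusted p of 0.0123 and an adjusted p of 0.977 (limma), and it was 0.23 without mouse 3. The gene rests on 1 probe set, whose identifier ends in _s_at, a class that can also read related transcripts. Over all genes the median difference in mouse 3 was 0.09, with 59.8% above the other mice. Kupffer cell markers had one of 0.24 there, with 6 of 6 above, and hepatocyte markers one of -0.09, with 0 of 6 above. Their part in the Slc25a47 values was not tested.

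Carriers of cofactors and nucleotides included 6 of 9 listed genes, and all 6 were higher in mouse 4 than in the mean of the other mice, where 42.9% of all genes were. All 6 were also higher there after quantile normalization and after the arrays were shifted to the same median, where 50.5% and 59.4% of all genes were. The count rests on the probe set of highest level. Over all 11 probe sets of these genes 8 were higher in mouse 4, where 42.8% of all probe sets were, and other probe sets of Slc25a17, Slc25a36 and Slc25a51 were at -0.46, -0.21 and -0.38 there. With the mean over the probe sets of each gene 5 of 6 were higher. Slc25a33, a pyrimidine nucleotide carrier, was the widest, at 11.46 in mouse 4 and 10.54 in mouse 3, with 11.05 and 10.93 in mice 1 and 2. Slc25a36, a carrier of the same kind, had a mean of 8.20 ± 0.17 (SD, n = 4). The coenzyme A carrier Slc25a42, the S-adenosylmethionine carrier Slc25a26 and the peroxisomal Slc25a17 had SDs of 0.15, 0.12 and 0.20.

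Slc25a51, which brings NAD into the matrix, measured 11.75, 11.92, 12.18 and 12.31 in mice 1 to 4. Its other 2 probe sets ran differently. They measured 11.21, 10.96, 10.53 and 11.05, and 10.86, 10.31, 9.37 and 9.80, and were highest in mouse 1, where the first was lowest. The level of Slc25a51 between these mice therefore depends on the probe set chosen.

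The iron carriers differed in spread. Slc25a37, mitoferrin 1, known from erythroid cells, measured 8.76, 9.87, 9.77 and 9.27 in mice 1 to 4, with mouse 1 the lowest and a range of 2.16-fold. Slc25a28, mitoferrin 2, known from other tissues, had a mean of 9.86 ± 0.13 (SD, n = 4). Erythroid markers, 4 of 6 measured, were 0.40 log2 higher in mouse 1 by their median. There 3 of 4 were higher, as were 42.8% of all genes, but these 3 had means of 4.89 to 7.13, below the median level. Alas2, the marker of highest level, measured 11.56, 11.74, 12.04 and 11.71 in mice 1 to 4 and was lowest in mouse 1. The erythroid markers summed to 3427, 3698, 4516 and 3627 in mice 1 to 4. Their part in the Slc25a37 values was not tested.

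Slc25a39, which imports glutathione, had the highest signal of the family and measured 15.25, 15.41, 15.41 and 15.29 in mice 1 to 4. The relatives of the uncoupling proteins gave lower signals. Slc25a30 measured 8.54, 8.77, 8.48 and 9.35 in mice 1 to 4, highest in mouse 4, and 3 of its 5 probe sets did not have their highest level in mouse 4. Slc25a14 had a mean of 5.36 ± 0.64 (SD, n = 4).

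Of the remaining members, Slc25a45 measured 10.66, 11.02, 11.38 and 10.89 in mice 1 to 4, with mouse 3 the highest and mouse 1 the lowest. Slc25a46, an outer membrane member that takes part in mitochondrial dynamics, had a mean of 11.82 ± 0.21 (SD, n = 4), and both of its probe sets were lowest in mouse 2. Slc25a53 measured 8.40, 8.85, 8.39 and 8.41, and it was 1 of 2 members, with Slc25a2, in which 1 mouse lay past Dixon's critical value for an outlier among 4, as in 5.91% of all genes. Slc25a48 had the largest SD of the family, 1.02, at a low mean of 6.70, and Slc25a35 had a mean of 7.33 ± 0.09 (SD, n = 4).

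**Figure D5:**
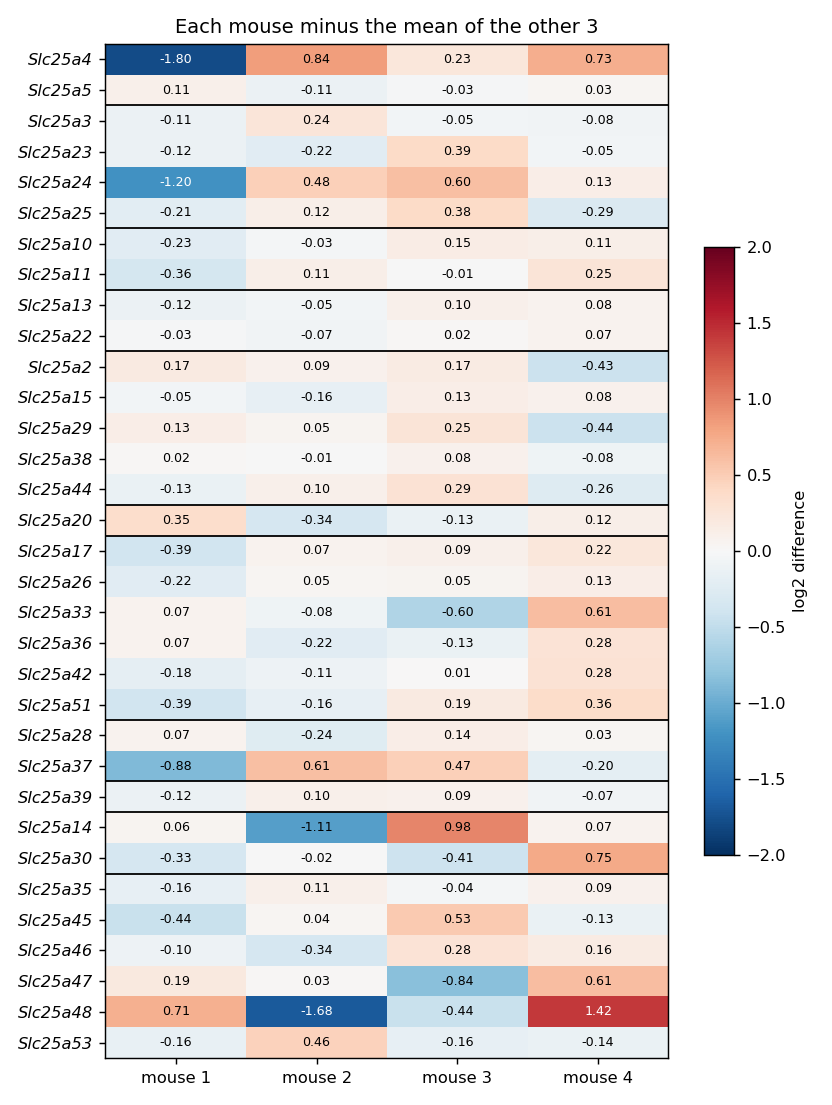
Log2 difference of each mouse (columns) from the mean of the other 3 mice for the 33 SLC25 genes (rows), grouped by role between the black lines, with red for higher and blue for lower. Slc25a4 in mouse 1 is at -1.80 and Slc25a47 in mouse 3 at -0.84, and all 6 cofactor and nucleotide carriers, from Slc25a17 to Slc25a51, are above 0 in mouse 4 on the 1 probe set per gene drawn, while other probe sets of Slc25a17, Slc25a36 and Slc25a51 are at -0.46, -0.21 and -0.38.

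The family was followed as a group by the median of its differences. The median over members of a mouse minus the mean of the other 3 was -0.12, -0.01, 0.09 and 0.08 log2 in mice 1 to 4, against -0.05, 0.06, 0.09 and -0.06 over all genes. Of the 33 members 11 were higher in mouse 1 than in the other mice, where 42.8% of all genes were, 16 in mouse 2, where 57.9% were, and 22 in mouse 3, where 59.8% were. In mouse 4 the count was 22 of 33, where 42.9% of all genes were higher. It was 22 of 33 after quantile normalization, where 50.5% were, 28 of 33 after the shift to the same median, where 59.4% were, and 18 of 33 with the mean over the probe sets of each gene, where 40.3% were. The lowest level fell in mouse 1 for 14 of 33, where 28.9% of all genes had it, and in mouse 4 for 5 of 33, where 30.7% had it. Over all 65 probe sets of the family 18 were lowest in mouse 1, where 27.2% of all probe sets were. The count was 13 in mouse 4, where 31.2% were. Those higher than the other mice numbered 29 in mouse 1, where 45.4% were, and 39 in mouse 4, where 42.8% were. Members are not replicates, and no test was made of these counts.

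Other proteins of mitochondrial exchange were taken as 3 lists. Of the other transporters and carrier relatives 12 of 17 were measured, of the outer membrane channels 4 of 4 and of the import machinery 15 of 15. In each of these lists 0 passed the spread test (limma, adjusted over all probe sets), and 0 of 12, 0 of 4 and 1 of 15 had an unadjusted p under 0.05, close to the 3.7% of all genes. The median SDs were 0.21, 0.17 and 0.14. The 1 was Timm50, a receptor subunit of the inner membrane translocase, at 8.88, 10.33, 9.88 and 9.54 in mice 1 to 4, and Tomm22, an import receptor of the outer membrane, was next, at 10.17, 11.02, 10.79 and 10.52. Both had their lowest level in mouse 1, but a second probe set of Tomm22 was lowest in mouse 2. Timm8a1 was the narrowest of the import list, at 12.59 ± 0.06 (SD, n = 4).

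Among the channels the widest were Vdac1, the outer membrane channel that passes ATP and ADP, at 13.94 ± 0.21, and Vdac2, at 13.27 ± 0.17, and the narrowest was Vdac3, at 12.73 ± 0.10 (SD, n = 4). Among the other transporters and carrier relatives Sfxn3, a sideroflexin, was the widest, at 6.65 ± 0.89, followed by Ucp1, the uncoupling protein of brown fat, at a low 3.20 ± 0.52. Mtch2, a carrier relative of the outer membrane, was the narrowest on its probe set of highest level, at 11.85 ± 0.08 (SD, n = 4), and its 6 probe sets disagreed with an SD of 1.29.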

How the data were processed

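Per the labels, liver total RNA was extracted with Trizol, cleaned on columns with DNase, and amplified from 2 ug by the RiboAmp procedure, a linear amplification primed at the poly(A) tail that favours 3-prime ends. The deposited values are 1 linear signal intensity per probe set and array, from 0.1 to 79882.6. The submitters' processing notes name RMA. The linear scale, the low values and a 2% trimmed mean that was the same on all 4 arrays differ from usual RMA output, and background treatment and detection calls are not given in the sources used here. The number of arrays limits precision.

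Intensities were taken to log2 as they stand. Of the 22626 probe sets that remained without the 64 controls, 20380 had 1 gene symbol, 691 several and 1555 none. RefSeq lookup changed 0 member symbols. Excess spread was tested with limma 3.58.1 in R 4.3.3, with a robust, level-dependent prior variance. The shared-difference test fitted probe set and mouse for each gene with 2 or more probe sets and set the mouse term against disagreement moderated by limma. Probe sets of a gene share RNA, array and sometimes sequence, so animal and array cannot be told apart. Both used Benjamini-Hochberg adjustment at 0.05 over all features and were tested on simulated data. Alternatives were other scalings, a floor of 64, level and probe set filters, other priors, probe set means, and leaving out each mouse, each with the probe set of a gene kept where it remained.

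The members and the partner and marker lists were chosen with earlier results of these data known. Values in every mouse are given for Slc25a4 and Slc25a5, the 8 members of highest level, the 8 of largest and 4 of smallest SD above the median level, and members where 1 mouse lay far from the rest. The partner lists are given by counts, the 2 widest genes and the 1 narrowest.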

Additional observations from a re-analysis of the deposited data

Results flagged for a closer look

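In 2 of the 33 carriers 1 mouse lay far from the other 3, measured as the gap to the nearest mouse over the whole range, and passed Dixon's 95% critical value for 4 samples. Slc25a53 in mouse 2 had a ratio of 0.968, at 8.85 log2 there, while mice 1, 3 and 4 gave 8.40, 8.39 and 8.41. Slc25a2 in mouse 4 had a ratio of 0.861, at 6.58 there, while mice 1 to 3 gave 7.04, 6.97 and 7.03, and its mean level of 6.91 lay below the median of all probe sets. Chance marks about 1 in 20 groups in this way, and 5.91% of all genes were marked on these arrays. Both genes had ranges under 1.5-fold.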

How the results depend on the processing

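No carrier passed the spread test (limma) under any alternative run. Over all probe sets 6 passed when only the upper 75% by level were kept, and 0 otherwise. With all arrays shifted to the same median 1 carrier, Slc25a5, passed the shared-difference test (adjusted p = 0.00337), and 1, Slc25a4, with only the upper 75% (adjusted p = 0.0118). Over all genes that test called 19, and 51 after the shift, 44 with only the upper 75%, 1 with signals under 64 raised to 64, 0 without probe sets ending in _s_at or _x_at, and 0 to 4 without 1 mouse. The median SD of carriers was 0.16 to 0.21 without 1 mouse, lowest without mouse 4. The shift moved the carriers' median to -0.021 in mouse 3 and 0.22 in mouse 4, and that of all genes in mouse 4 to 0.08. Relative to all genes the carriers were at 0.14 in mouse 4 with and without the shift, and at 0.06 after quantile normalization. Slc25a4 in mouse 1 stayed below the other mice, from -2.06 to -0.92, the smallest size being with the mean over its 4 probe sets. Counts of carriers by range, in mouse 4 by role, and of Slc25a5 probe sets above the others in mouse 1 were also run under both scalings and, other than the last, with the mean over probe sets and without mouse 1, alternatives chosen after seeing the data. The carriers with a range above 2-fold numbered 5 after quantile normalization, 7 after the shift, 6 with the mean over probe sets and 3 without mouse 1. All 8 Slc25a5 probe sets stayed higher in mouse 1 under both scalings, and 45.4% of all probe sets were higher there without either. Slc25a47 had no value without _s_at probe sets. A mouse left out has no difference of its own. The cause of these changes was not tested. No paired analysis was possible because the labels give 1 group.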
